A study of Mus musculus with 12 samples.

Results

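The genes examined here encode 3 families of RNA-binding proteins that act in pre-mRNA splicing, the serine/arginine-rich SR proteins (Srsf), the heterogeneous nuclear ribonucleoproteins (Hnrnp) and the RNA-binding motif proteins (Rbm). They were taken by symbol: protein-coding genes named Srsf, Hnrnp or Rbm with a number or letter, off the sex chromosomes and with at least 10 counts in 4 or more libraries. Of 70 protein-coding genes with such a symbol, 5 lay on X or Y and 5 were below the count minimum, which left 60 of the 54146 gene records, 10 Srsf, 19 Hnrnp and 31 Rbm. The rule uses no difference between groups, but this group of genes was picked with earlier results of these data known. All 60 also passed the low-count filter of the test. Polyadenylated RNA came from mouse hearts 6 weeks after surgery, with 4 libraries in each of 3 groups. Sham WT were NRON wild-type mice with sham surgery, TAC WT were wild-type mice with transverse aortic constriction (TAC, a surgical narrowing of the aorta that loads the left ventricle), and TAC KO were mice lacking NRON, a long noncoding RNA, with the same constriction. No sham-operated knockout mice were analysed here, so the knockout was measured only in hearts under pressure load. The sources used here give no strain, age, sex or construction of the knockout allele.

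SR proteins carry 1 or more RNA recognition motifs and a tail rich in arginine and serine, bind exonic enhancers and recruit the spliceosome, and kinases of the Clk and Srpk families control their activity and import. The hnRNP proteins coat nascent transcripts and often act against SR proteins at the same exons, and many also govern export, stability and translation of mRNA. The Rbm genes share only a motif name and include muscle splicing factors such as Rbm20 and Rbm24, spliceosome components, and factors of RNA decay and ribosome assembly. In heart muscle, Rbm20 is known for setting the isoforms of titin, and mutations in it cause dilated cardiomyopathy. Many SR and hnRNP genes hold back their own output by splicing in a poison exon that sends the transcript to decay. The counts analysed here are per gene and carry no information on exon use.

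Libraries held 26288519 to 35945770 counts, and 21642 to 22597 genes were detected in each. Levels are CPM (counts-per-million) after TMM scaling, and tests are edgeR's quasi-likelihood test on all 12 libraries with Benjamini-Hochberg adjustment over 15477 tested genes, called at 0.05. Whether each library is its own animal is not in the labels, and the p-values therefore describe variation among the libraries at hand. Both annotated records of Nron had 0 counts in all 12 libraries, which allows up to 0.083 to 0.114 CPM (3 counts), so these counts do not check the knockout label. The 8 cardiomyocyte markers summed to 63594 to 81112 CPM in the 12 libraries, the highest sum of the cell type lists. In whole hearts, fewer cells of a type and less RNA per cell cannot be told apart.

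Levels of the genes spanned a wide range, compared here per kilobase of all annotated exons of a gene merged together, scaled to the same sum over all genes in each library (a TPM-like level) and averaged over the 12 libraries. Another choice of length would change parts of the order. Hnrnpa2b1, an A/B-type hnRNP that binds RNA in splicing and transport, had the highest average at 199 ± 44.6 (SD, n = 12). Hnrnpab followed at 145 ± 11.4 and Srsf2, a protein of nuclear speckles also called SC35, at 126 ± 9.4. These averages pool the 3 groups, and the first place did not hold within each. Among TAC KO libraries the mean of Hnrnpa2b1 was 140, slightly below the 144 of Hnrnpab. Both wild-type groups had a mean of 228 for Hnrnpa2b1, against 139 (Sham WT) and 154 (TAC WT) for Hnrnpab. Rbm24, Srsf5 and Rbm38 each averaged 115, with ranges over libraries that overlapped. Rbm20 stood 13th of 60, at 67.2 ± 7.8. Srsf1, the founding member of the SR family, stood 55th at 2.82 ± 0.533, the lowest of the 10 Srsf genes, and next above it in that family was Srsf10 at 13 ± 2.15. The lowest 3 genes were Rbm4 at 0.938, Rbm8a2 at 0.464 and Rbm47 at 0.284. Of the 59 pairs of neighbours in this order, 3 had ranges over the 12 libraries that did not overlap, so most ranks are not fixed by these data. Whether the counting used strand is not known from the sources used here, and how far that sets the low level of Srsf1 was not tested.

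TAC WT and Sham WT were compared to ask how these genes respond to pressure load in wild-type hearts, and few of them did. Of the 60 genes, 2 rose and 3 fell, where 19.7% of all tested genes changed, 9.67% upward and 10% downward. The median log2 fold change of the 60 genes was -0.01, against a value near 0 over all tested genes, with 28 above 0 and 32 below. Rbm24 and Hnrnpl had the smallest p-values of the decreases, and Rbm28 of the increases. The 2 groups had separate ranges for 2 genes higher in TAC WT and for 6 lower, where 24.7% of all tested genes were apart, 12% higher and 12.7% lower.

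Rbm24, a muscle splicing factor for sarcomere transcripts on chromosome 13 (46418434 to 46431095, + strand, GRCm38), stood at 228, 179, 195 and 181 CPM in Sham WT 1 to 4 and at 142, 160, 150 and 147 in TAC WT. Every TAC WT library was below every Sham WT library, and Sham WT 1 was the highest of the 12. The log2 change was -0.39 (SE 0.08, adjusted p = 0.004439), and it passed under all 21 other settings tried. Hnrnpl, which binds CA repeats in RNA (chromosome 7, 28808541 to 28822266), stood at 220, 212, 203 and 189 CPM in Sham WT 1 to 4 and at 174, 161, 156 and 171 in TAC WT. The groups did not overlap, and the log2 change was -0.32 (SE 0.08, adjusted p = 0.009477). Srsf5, an SR protein of chromosome 12 (80945504 to 80950507), stood at 227, 208, 247 and 213 CPM in Sham WT 1 to 4 and at 176, 176, 174 and 192 in TAC WT. It fell by 0.32 on the log2 scale (SE 0.10, adjusted p = 0.03286). Without each of 6 wild-type libraries in turn (replicates 1, 2 and 3 of Sham WT and of TAC WT) that adjusted p lay between 0.0502 and 0.1027, above the threshold. Rbm28, a nucleolar protein linked to ribosome assembly (chromosome 6, 29123576 to 29165006), stood at 41.9, 41.2, 41.5 and 43.5 CPM in Sham WT 1 to 4 and at 48.8, 49.2, 56.1 and 48.9 in TAC WT. All TAC WT libraries were higher, with a log2 change of 0.27 (SE 0.07, adjusted p = 0.01004). Rbm45 stood at 12.6, 13.5, 15.7 and 15.2 CPM in Sham WT 1 to 4 and at 15.6, 18.4, 19.9 and 18 in TAC WT. Its ranges overlapped, the log2 change was 0.34 (SE 0.11, adjusted p = 0.04887), and the call was lost under 10 of the 21 other settings.

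Other genes did not pass. Rbm25 had a log2 difference of 0.23 (SE 0.09, adjusted p = 0.07599) with ranges that did not overlap, and it passed under 3 of the 21 other settings, including the fit that takes out each library's trends in GC content and transcript length (adjusted p = 0.03218). Rbm20, the titin splicing factor (chromosome 19, 53677306 to 53867080), stood at 188, 199, 207 and 218 CPM in Sham WT 1 to 4 and at 176, 201, 154 and 163 in TAC WT. TAC WT 2 lay inside the Sham WT range, and the log2 difference of -0.22 (SE 0.10, adjusted p = 0.1311) did not pass. It did pass with limma voom (adjusted p = 0.04796) and without TAC WT 2 (adjusted p = 0.03901). Srsf2 stood at 151, 162, 172 and 167 CPM in Sham WT 1 to 4 and at 144, 143, 143 and 150 in TAC WT, groups that did not overlap, with a log2 difference of -0.17 (SE 0.06, adjusted p = 0.08019). Srsf9 stood at 15.3, 16.2, 17.1 and 18.5 CPM in Sham WT 1 to 4 and at 19.6, 17.4, 19.8 and 21.1 in TAC WT, with overlapping ranges and a log2 difference of 0.21 (SE 0.09, adjusted p = 0.1121). Hnrnpd, also called AUF1 and known for decay of AU-rich mRNAs, stood at 82.3, 76.4, 81.6 and 79.4 CPM in Sham WT 1 to 4 and at 69.4, 70.4, 64.5 and 79.8 in TAC WT, and TAC WT 4 lay inside the Sham WT range (log2 -0.17, SE 0.08, adjusted p = 0.1641). Hnrnpul1 stood at 99.6, 98.1, 90 and 90.9 CPM in Sham WT 1 to 4 and at 88.1, 91.4, 79.1 and 88.6 in TAC WT, with a log2 difference of -0.13 (SE 0.06, adjusted p = 0.1764). Of the Srsf family 1 of 10 fell, of the Hnrnp family 1 of 19 fell, and of the Rbm family 2 of 31 rose and 1 fell, beside the 10% of all tested genes that fell and the 9.67% that rose.

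TAC KO and TAC WT were compared to ask what loss of NRON does in hearts under pressure load. Here 29 of the 60 genes fell (48.3%) and 1 rose, where 33% of all tested genes changed, 17.3% downward and 15.7% upward. The median log2 fold change was -0.24, against a value near 0 over all tested genes, and the range ran from -0.91 to 0.35 with 55 genes below 0. Groups did not overlap for 30 genes lower in TAC KO and 1 higher, where 28.5% of all tested genes were apart, 15.2% lower and 13.3% higher. The summed level of the 60 genes was 3475 to 4088 CPM in TAC KO, below both TAC WT (4558 to 4716) and Sham WT (4774 to 4911). By family, 7 of 10 Srsf, 10 of 19 Hnrnp and 12 of 31 Rbm genes fell, with medians of -0.31, -0.23 and -0.22. The difference between families was not tested.

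**Figure D1:**
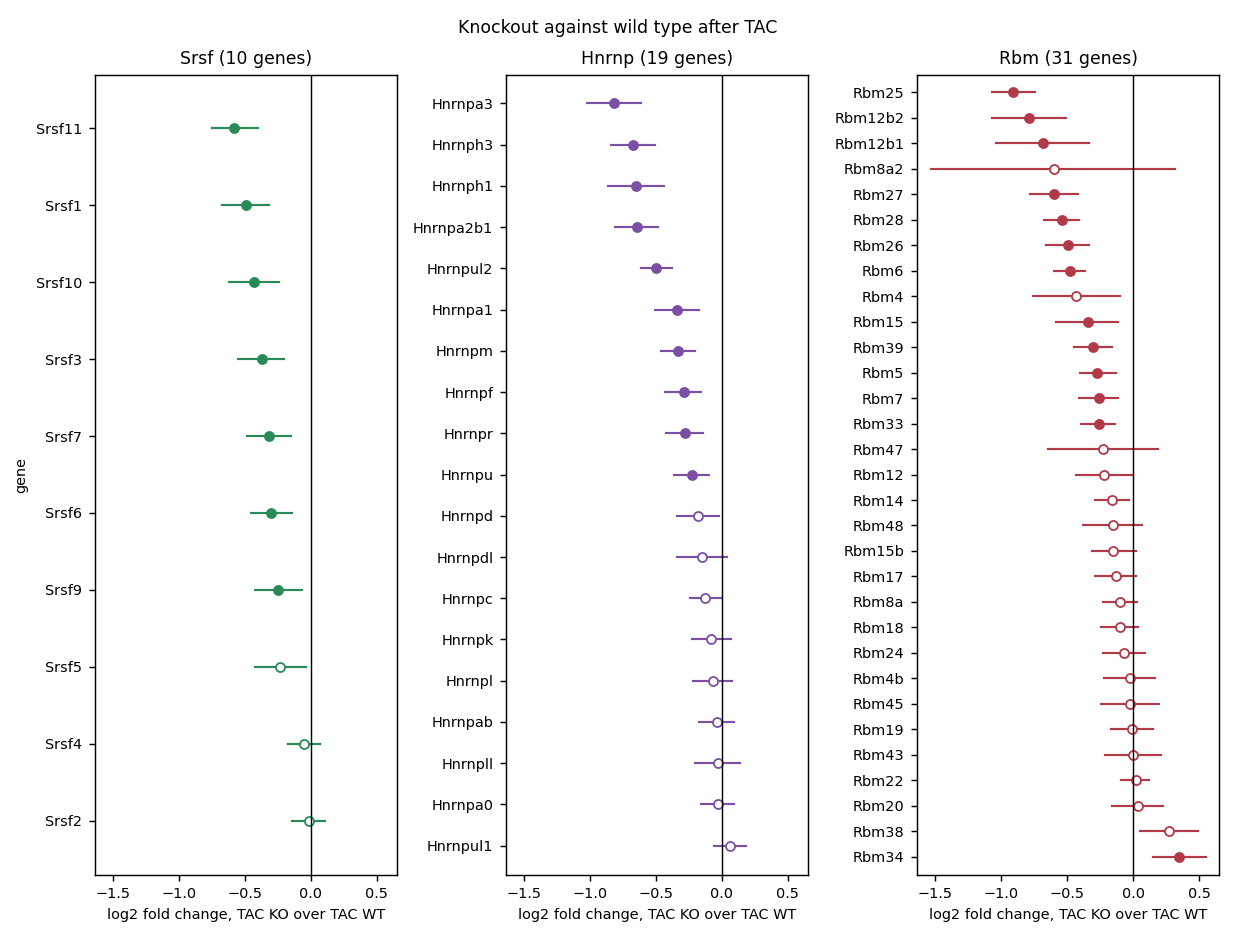
Log2 fold change of TAC KO over TAC WT for each of the 60 genes, by family, with approximate 95% intervals. The intervals are normal approximations from the SE. Filled points passed an edgeR adjusted p of 0.05. Filled points lie left of 0 for 29 genes, from -0.91 in Rbm25 to -0.23 in Hnrnpu, and right of 0 for Rbm34 at 0.35 alone.

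Among the SR proteins, Srsf11, an SR-related protein of the early spliceosome (chromosome 3, 158010473 to 158036639, - strand), stood at 72.9, 80.4, 90.2 and 86.8 CPM in Sham WT 1 to 4, at 89.1, 85.5, 101 and 88.5 in TAC WT and at 51.9, 64.8, 68.3 and 59.5 in TAC KO. All TAC KO libraries were below all others, and the log2 change from TAC WT was -0.58 (SE 0.09, adjusted p = 0.0004645). Srsf1 (chromosome 11, 88047373 to 88053755, + strand) stood at 7.4, 7.04, 7.57 and 7.22 CPM in Sham WT 1 to 4, at 8.04, 6.65, 6.64 and 7.24 in TAC WT and at 4.81, 5.01, 5.07 and 5.38 in TAC KO. Its TAC KO libraries were likewise the lowest 4 of the 12, with a log2 change of -0.49 (SE 0.09, adjusted p = 0.0009478). Srsf10, a splicing repressor when dephosphorylated, stood at 38.9, 39.1, 40 and 43.3 CPM in Sham WT 1 to 4, at 39.4, 40.8, 41.9 and 38.3 in TAC WT and at 22.8, 30.3, 33.5 and 32.3 in TAC KO. TAC KO 1 was the lowest library of the 12 and the groups did not overlap (log2 -0.43, SE 0.10, adjusted p = 0.003885). Srsf3, the smallest SR protein and an adaptor for mRNA export, stood at 96.9, 85.1, 89 and 102 CPM in Sham WT 1 to 4, at 89.8, 89.7, 98.9 and 82.1 in TAC WT and at 56.7, 71.7, 74 and 75.5 in TAC KO. The groups were apart, again with TAC KO 1 lowest, and the log2 change was -0.37 (SE 0.09, adjusted p = 0.006841). Srsf6 stood at 152, 152, 156 and 159 CPM in Sham WT 1 to 4, at 155, 149, 160 and 149 in TAC WT and at 102, 127, 129 and 140 in TAC KO, also with no overlap and TAC KO 1 lowest (log2 -0.30, SE 0.08, adjusted p = 0.01058).

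Of the other Srsf genes, Srsf7, which like Srsf3 serves in mRNA export, fell by 0.32 on the log2 scale (adjusted p = 0.01158). Srsf9 fell by 0.25 (adjusted p = 0.04918), and 15 of the 21 other settings lost that call. It stood at 16.2, 14.1, 18.4 and 16.9 CPM in TAC KO 1 to 4, a range that overlapped TAC WT. Srsf5 stood at 120, 149, 170 and 171 CPM in TAC KO 1 to 4, each below each TAC WT library, but its difference did not pass (log2 -0.23, SE 0.10, adjusted p = 0.0841). Srsf4 and Srsf2 had log2 differences of -0.05 and -0.01, with 95% intervals of -0.17 to 0.07 and -0.14 to 0.11, so changes of the size seen for Srsf11 lie outside those intervals.

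**Figure D2:**
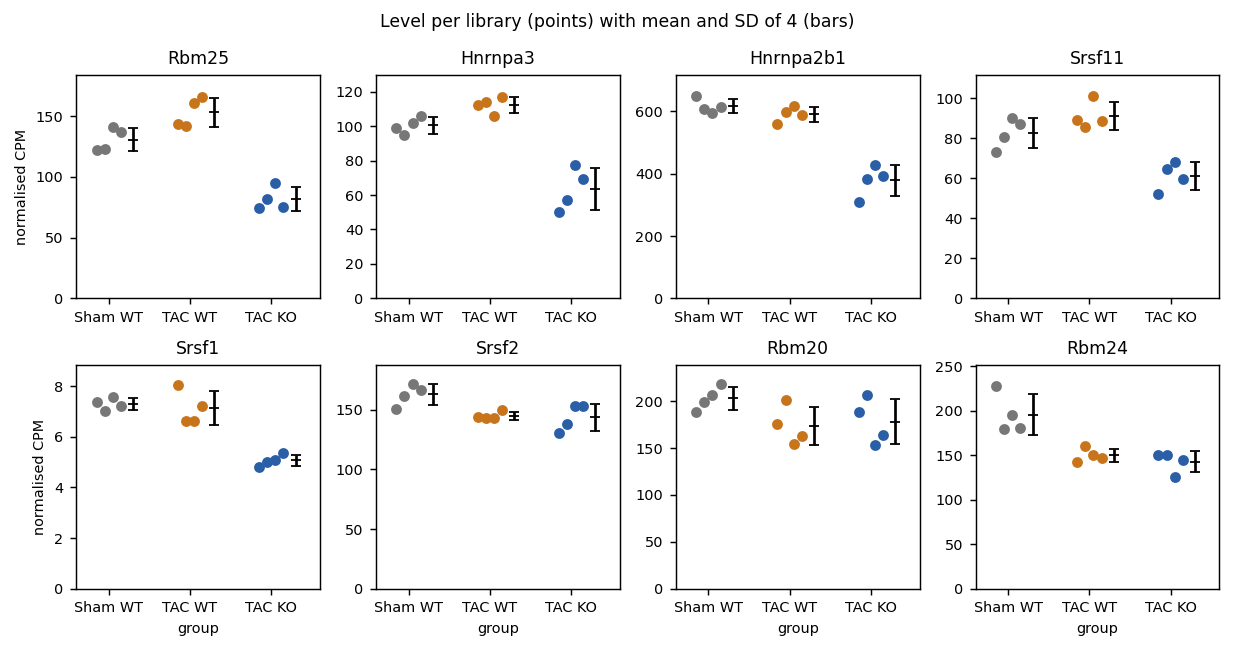
Normalised CPM in each library for 8 genes, as points by group, with the mean and SD of 4 libraries as bars; axes start at 0. The TAC KO points of Rbm25, Hnrnpa3, Hnrnpa2b1, Srsf11 and Srsf1 lie below all others, while those of Srsf2, Rbm20 and Rbm24 overlap the TAC WT points.

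Among the hnRNPs, 3 of the A/B type fell, Hnrnpa1, Hnrnpa2b1 and Hnrnpa3. Hnrnpa3 (chromosome 2, 75659261 to 75669407, + strand) stood at 98.8, 94.7, 102 and 106 CPM in Sham WT 1 to 4, at 112, 114, 106 and 117 in TAC WT and at 50.4, 57.1, 77.5 and 69.3 in TAC KO. TAC KO 1 and 2 were lowest, no TAC KO library reached the others, and the log2 change was -0.82 (SE 0.10, adjusted p = 0.0001266). Hnrnpa2b1, the gene of highest mean level (chromosome 6, 51460932 to 51469894, - strand), stood at 648, 609, 595 and 614 CPM in Sham WT 1 to 4, at 561, 598, 617 and 587 in TAC WT and at 309, 383, 427 and 394 in TAC KO. Sham WT and TAC WT overlapped each other and TAC KO lay below both, with a log2 change from TAC WT of -0.64 (SE 0.08, adjusted p = 0.0001319). Hnrnpa1, the best known splicing repressor of this type, fell by 0.34 (adjusted p = 0.008199), and Hnrnpa0 stood at -0.03 and did not pass (95% interval -0.16 to 0.09). Hnrnpab stood at -0.04 and did not pass either (95% interval -0.17 to 0.09).

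Hnrnph1 and Hnrnph3 belong to a group of hnRNPs that bind runs of G in RNA, with Hnrnpf. Hnrnph1 (chromosome 11, 50376990 to 50386528) stood at 203, 190, 201 and 212 CPM in Sham WT 1 to 4, at 198, 206, 207 and 216 in TAC WT and at 103, 117, 154 and 152 in TAC KO. TAC KO 1 and 2 were the lowest, and the log2 change was -0.65 (SE 0.11, adjusted p = 0.0005904). Hnrnph3 (chromosome 10, 63014664 to 63024217) stood at 65, 60.9, 61.1 and 61.1 CPM in Sham WT 1 to 4, at 59.6, 66.1, 64.8 and 65 in TAC WT and at 33.8, 36.6, 44 and 45.6 in TAC KO, with a log2 change of -0.67 (SE 0.08, adjusted p = 0.0001074). The TAC KO libraries were the lowest 4 for both genes, and Hnrnpf fell by 0.29 (adjusted p = 0.00607). Hnrnpul2, related to Hnrnpu and known from the response to DNA damage, stood at 122, 120, 119 and 123 CPM in Sham WT 1 to 4, at 121, 129, 114 and 119 in TAC WT and at 79.9, 86.3, 92.3 and 82.8 in TAC KO. Its groups were narrow, wild-type libraries spanned 114 to 129 CPM, and the log2 change was -0.50 (SE 0.06, adjusted p = 6.913e-05). Hnrnpm fell by 0.33, Hnrnpr by 0.28 and Hnrnpu, a nuclear scaffold protein that is needed for normal splicing in heart, by 0.23 (adjusted p = 0.001809, 0.00752 and 0.01884). With each library's trends in GC content and transcript length fitted and removed, Hnrnpr and Hnrnpu turned to 0.05 and 0.03 and did not pass (adjusted p = 0.565 and 0.688). Of the 9 Hnrnp genes that did not pass, log2 differences ran from -0.18 in Hnrnpd to 0.06 in Hnrnpul1, and they include the C-tract binder Hnrnpk at -0.08, the U-tract binder Hnrnpc at -0.13 and Hnrnpl at -0.07.

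Among the Rbm genes, Rbm25 had the largest fall of the whole set. Rbm25, a spliceosome-associated regulator of alternative splicing (chromosome 12, 83631236 to 83683123, + strand), stood at 122, 123, 141 and 137 CPM in Sham WT 1 to 4, at 144, 142, 161 and 166 in TAC WT and at 74.1, 82.2, 95.2 and 75.3 in TAC KO. Its mean was 81.7 ± 9.65 CPM in TAC KO against 153 ± 11.7 in TAC WT (SD, n = 4), with no overlap and a log2 change of -0.91 (SE 0.09, adjusted p = 1.626e-05). Rbm28 stood at 31.7, 33.9, 35.8 and 37.9 CPM in TAC KO 1 to 4, below both wild-type groups, and its log2 change from TAC WT was -0.54 (SE 0.07, adjusted p = 9.199e-05). Rbm26 and Rbm27 are paralogous zinc finger proteins of nuclear RNA decay. Rbm27 stood at 19.8, 23.1, 22.3 and 23.7 CPM in Sham WT 1 to 4, at 22.4, 22.9, 23.4 and 22.8 in TAC WT and at 12.1, 14.8, 16.1 and 17.2 in TAC KO (log2 -0.60, SE 0.09, adjusted p = 0.0004205). Rbm26 stood at 27.6, 24.8, 29 and 29.6 CPM in Sham WT 1 to 4, at 28.2, 27, 25.7 and 27.6 in TAC WT and at 15.9, 19.5, 20.5 and 21 in TAC KO (log2 -0.49, SE 0.08, adjusted p = 0.0007706). In both, TAC KO 1 was lowest and every TAC KO library was below every other. Rbm6, a splicing regulator of chromosome 9 (107773559 to 107873237), stood at 40.6, 41.2, 43.5 and 43.7 CPM in Sham WT 1 to 4, at 40.8, 44.7, 44.5 and 42.8 in TAC WT and at 28.3, 32.4, 32.3 and 31 in TAC KO. The TAC KO libraries spanned 28.3 to 32.4 CPM and did not overlap the others, with a log2 change of -0.48 (SE 0.06, adjusted p = 0.0001176).

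Smaller falls were found for Rbm39, a U2AF-related splicing factor (-0.30, adjusted p = 0.006206), Rbm5, a regulator of apoptosis gene splicing (-0.27, adjusted p = 0.009121), Rbm7, a subunit of the nuclear exosome targeting complex (-0.26, adjusted p = 0.01649), and Rbm33 (-0.26, adjusted p = 0.006495). Once those GC and length trends were taken out, Rbm5 stood at -0.07 and Rbm33 at -0.11, and neither passed (adjusted p = 0.4022 and 0.1128). Rbm15, part of the m6A methyltransferase complex, fell by 0.34 (adjusted p = 0.03851) with overlapping ranges, and 8 of the 21 other settings lost it. Rbm12b2 and Rbm12b1 fell by 0.79 and 0.68 (adjusted p = 0.001171 and 0.01056), but their transcripts are near-identical (95% identity across 50% of the length or better), and reads between them may have been divided either way. Rbm34 was the 1 gene that rose. It stood at 5, 3.88, 4.87 and 4.85 CPM in TAC WT 1 to 4 and at 5.36, 5.98, 6.58 and 5.78 in TAC KO, with no overlap, and its log2 change of 0.35 (SE 0.10, adjusted p = 0.01721) was lost without TAC KO 3 (adjusted p = 0.05086).

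The muscle factors did not pass in this comparison. Rbm20 stood at 189, 207, 153 and 164 CPM in TAC KO 1 to 4 and its log2 difference was 0.04 (SE 0.10, adjusted p = 0.808), with a 95% interval of -0.16 to 0.23. Rbm24 stood at 150, 150, 126 and 145 CPM in TAC KO 1 to 4, overlapping TAC WT, with a log2 difference of -0.07 (SE 0.08, adjusted p = 0.5478) and an interval of -0.23 to 0.09. Rbm38, a p53 target that regulates mRNA stability, stood at 0.27 (SE 0.11, adjusted p = 0.07845). Of other Rbm genes that did not pass, Rbm8a of the exon junction complex stood at -0.10, Rbm22 at 0.02 and Rbm17 at -0.13, though Rbm17 passed once those GC and length trends were taken out (-0.25, adjusted p = 0.04523). Rbm8a2 had only 98 counts in all and an interval of -1.53 to 0.32, which spans the falls of all the other genes. Its transcript is near-identical to one of Rbm8a (15601 counts), and reads between them may have been divided either way.

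**Figure D3:**
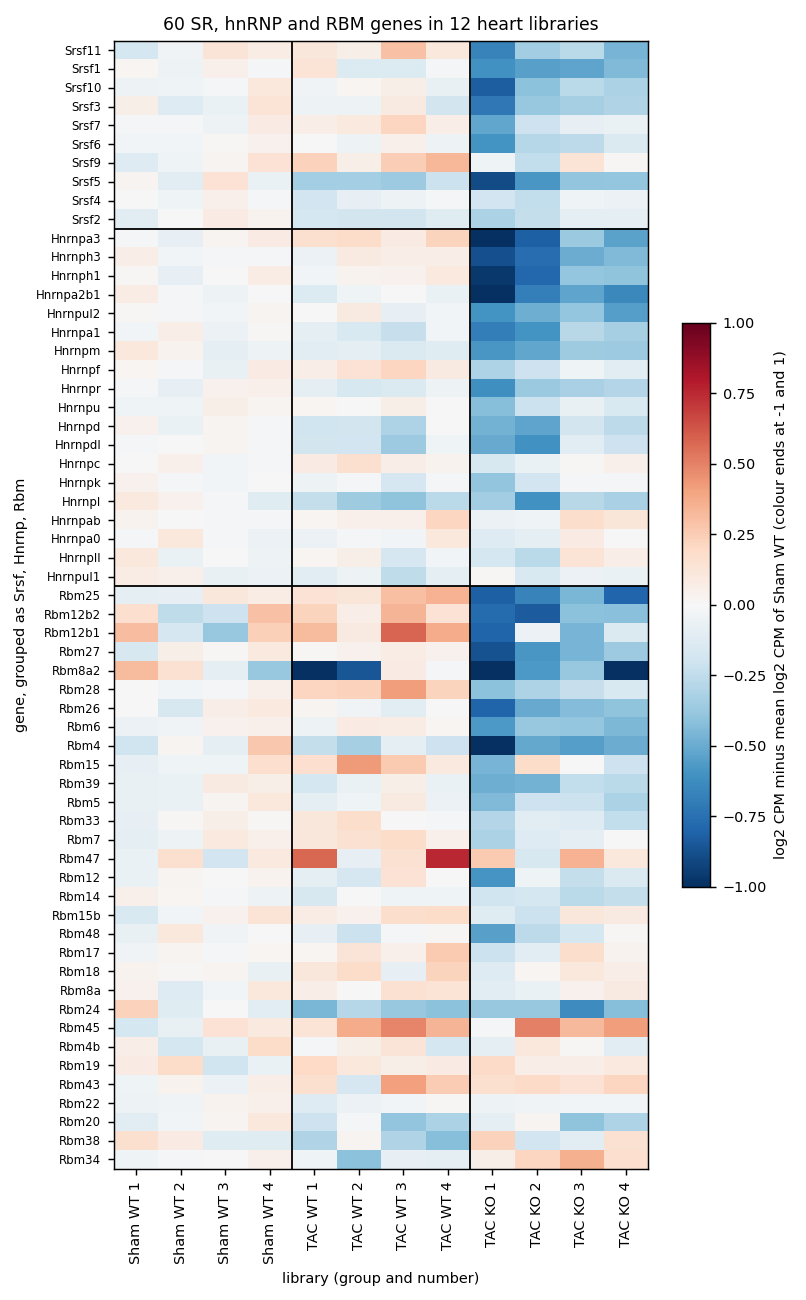
Log2 CPM of each of the 60 genes in each of the 12 libraries, minus the gene's mean in Sham WT, with red above and blue below and colours ending at -1 and 1. The blue block in the 4 TAC KO columns covers most Srsf and Hnrnp rows and is deepest in TAC KO 1 for genes such as Hnrnpa3 and Hnrnpa2b1, while Rbm24 and Hnrnpl are blue in TAC WT as well.

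Set against Sham WT, the TAC KO hearts gave a further comparison, which shares the TAC KO libraries with the second and the Sham WT libraries with the first. In it 31 of the 60 genes fell (51.7%) and 1 rose, where 27.6% of all tested genes changed, 14.8% downward and 12.8% upward, and the median was -0.23, again near 0 over all tested genes. Groups were apart for 33 genes lower and 2 higher, where 30.7% of all tested genes were apart, 16.3% lower and 14.3% higher. The families stood at 7 of 10 Srsf, 12 of 19 Hnrnp and 12 of 31 Rbm genes lower. Hnrnpa2b1 had a log2 change of -0.71 (SE 0.08, adjusted p = 8.66e-05) and Rbm25 of -0.68 (SE 0.09, adjusted p = 0.0001273). With trends removed Rbm25 stood at -0.38 (adjusted p = 0.003396). The genes that fell with TAC in wild-type hearts were chosen against the same Sham WT libraries, so their values here are a description, with Srsf5 at -0.55 (SE 0.10, adjusted p = 0.001224), Rbm24 at -0.46 (SE 0.08, adjusted p = 0.001314) and Hnrnpl at -0.39 (SE 0.08, adjusted p = 0.00231). Rbm28, which rose with TAC in wild-type hearts, was below its sham level in the knockout at -0.27 (SE 0.07, adjusted p = 0.008747). Rbm20 did not pass, at -0.19 (SE 0.10, adjusted p = 0.1758). The 1 gene that rose was Rbm45 at 0.32 (SE 0.11, adjusted p = 0.04907), which 11 of the 21 other settings lost, and the fall of Srsf2 at -0.18 (SE 0.06, adjusted p = 0.04949) was lost under 13.

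Base composition and length moved with these results. The median GC content of the longest transcript was 44.2% in the 60 genes and 49.6% in all tested genes, and median lengths were 3508 and 3194 bases. The 29 genes that fell in TAC KO against TAC WT had a median GC of 43.2% and a length of 4010 bases, and the 30 that did not pass had 47.1% and 3028 bases. Across the 60 genes, the log2 change correlated with GC at r = 0.54 and rho = 0.52, and with log2 length at r = -0.15 and rho = -0.22; these genes share the same libraries and are not independent replicates. Libraries differed in the same property. Each gene's log2(CPM + 0.5) was taken relative to its own mean, and the median over genes in the highest quintile of GC less the median in the lowest came to -0.133 to -0.038 in the 8 wild-type libraries and 0.381, 0.116, 0.095 and 0.103 in TAC KO 1 to 4. For the longest less the shortest quintile it was -0.025 to 0.175 in wild-type libraries and -0.223, -0.131, -0.137 and -0.227 in TAC KO 1 to 4.

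Within the quintile of tested genes lowest in GC (25.6 to 43.7%), 30.3% of all genes fell in TAC KO and 17 of the 26 genes of the set did. In the next quintile the share was 21.2% of all genes and 6 of 14 of the set, and in the middle one 17% and 6 of 11. In the highest 2 quintiles none of the 4 and none of the 5 genes of the set fell, where 11.3% and 6.69% of all genes did. With GC and length trends of each library fitted and removed, 26 genes fell and 1 rose, where 13.7% of all tested genes fell and 12.6% rose, the median was -0.19, and 24 of the falls were common to both fits. The correlation with GC was then r = 0.20 and rho = 0.15. That with log2 length turned to r = 0.21 and rho = 0.16, from r = -0.15 and rho = -0.22 as counted. Rbm25 stood at -0.62 (adjusted p = 0.0001363), Hnrnph3 at -0.69 (adjusted p = 4.684e-05), Hnrnpa3 at -0.59 and Srsf11 at -0.55. Srsf1 stood at -0.27 (adjusted p = 0.02798), Hnrnph1 at -0.37 and Srsf3 at -0.21, each over 1.5 times smaller on the log2 scale than before. Hnrnpr, Hnrnpu, Rbm5, Rbm33 and Rbm15 (adjusted p = 0.2185) no longer passed. Against Sham WT, 29 genes fell and 1 rose with the trends removed, where 11.5% and 9.86% of all tested genes did, and in TAC WT against Sham WT 4 fell and 3 rose, where 11.6% and 10.9% did. The part of the GC and length differences in these results was not tested beyond this fit.

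**Figure D4:**
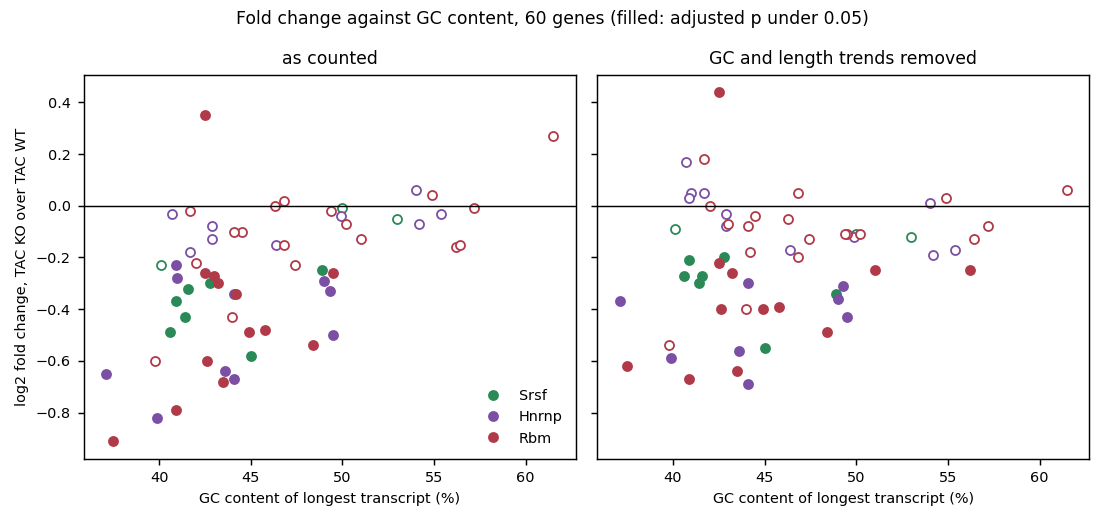
Log2 fold change of TAC KO over TAC WT against the GC content of the longest transcript for the 60 genes, as counted (left) and with GC and length trends removed (right); filled points passed. Points fall toward low GC on the left (r = 0.54) and less so on the right (r = 0.20), where 26 genes are filled below 0, 24 of them also filled on the left.

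Other genes of the splicing pathway were counted by lists. Of 11 kinases and import receptors of SR proteins, 9 fell in TAC KO against TAC WT with a median of -0.28, led by Prpf4b at -0.48, Clk1 at -0.44 and Clk4 at -0.39 (adjusted p = 0.0005134, 0.005167 and 0.002354), where 17.3% of all tested genes fell. With trends removed these 3 stood at -0.21, -0.20 and -0.20, and Clk1 no longer passed (adjusted p = 0.08781). In that fit 4 of the 11 fell, where 13.7% of all tested genes did. In TAC WT against Sham WT none of the 11 passed as counted, where 19.7% of all tested genes changed. With trends removed 1 rose there, Dyrk1a at 0.27 (adjusted p = 0.04818), where 10.9% of all tested genes rose. Of 31 tested other splicing regulators, 18 fell and 2 rose, with a median of -0.27, beside 17.3% and 15.7% of all tested genes. With trends removed 10 fell and 3 rose, beside 13.7% and 12.6% of all tested genes. Pnn, a speckle protein of exon junctions, stood at -0.69 (adjusted p = 7.422e-06), Celf2 at -0.55 (-0.29 with trends removed) and Sfpq at -0.43. With TAC in wild-type hearts 4 of these 31 fell (12.9%) and 1 rose (3.23%), beside 10% and 9.67% of all tested genes. They included Rbfox1, a splicing factor of muscle and neurons, at -1.01 (SE 0.13, adjusted p = 0.0001442), Khdrbs3 at -0.32 and Rbpms2 at -0.26.

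As counted, few genes of the core spliceosome passed. Of 48 snRNP and catalytic subunits, 5 fell and 2 rose in TAC KO against TAC WT, with a median of -0.04, where 17.3% of all tested genes fell and 15.7% rose. These 5 are 10.4% of the list, and with trends removed 9 fell and 6 rose, where 13.7% and 12.6% of all tested genes did. Only 2 of the falls and 2 of the rises were common to both fits. U2surp stood at -0.45, or -0.12 with trends removed when it did not pass (adjusted p = 0.0911), Snrnp70 of the U1 particle at -0.34, and Prpf19 rose by 0.43 (adjusted p = 0.000692). Of 13 genes of nonsense-mediated decay and the exon junction complex 5 fell (38.5%) and 2 rose (15.4%), beside 17.3% and 15.7% of all tested genes. Their median was -0.04, and among them were Upf2 at -0.36, Smg1 at -0.33 and Smg9 at 0.33. With trends removed 2 fell and none rose, beside 13.7% and 12.6% of all tested genes, with Smg1 at -0.09 and Smg9 at 0.13. Of 18 transcripts known as splicing targets of Rbm20, 7 fell and 1 rose in TAC KO against TAC WT, with Enah at -1.05, Nexn at -1.01 and Trdn at -0.58, beside 17.3% and 15.7% of all tested genes. With trends removed 6 fell and 1 rose, beside 13.7% and 12.6% of all tested genes, and Trdn stood at -0.29. In TAC WT against Sham WT 6 of the 18 rose and 1 fell, beside 9.67% and 10% of all tested genes. Enah stood at 1.49, Rtn4 at 0.92 and Lmo7 at -0.48. With trends removed 6 rose and 3 fell in that comparison, beside 10.9% and 11.6% of all tested genes. These are total levels of the targets and not their isoforms.

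**Figure D5:**
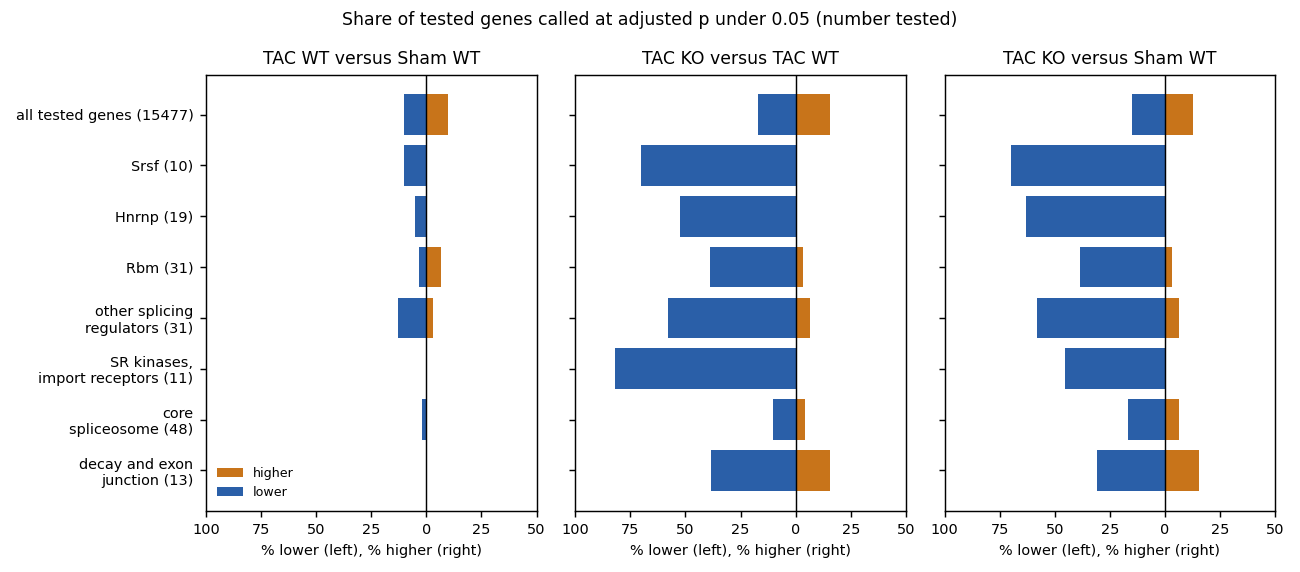
Share of tested genes that passed in each comparison, lower to the left and higher to the right, for all tested genes, the 3 families and 4 lists of other splicing genes, with the number tested in brackets. In the TAC KO panels the 3 families show 38.7 to 70% lower, all tested genes show 17.3% and 14.8%, and in the panel of TAC WT against Sham WT the families show 3.23 to 10% lower.

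RNAs kept in the nucleus and markers of cell types also moved with TAC KO. All 4 tested nuclear-retained RNAs fell against TAC WT, with a median of -0.90, where 17.3% of all tested genes fell. With trends removed 3 of the 4 fell, with a median of -0.65, where 13.7% of all tested genes did. Malat1, a speckle RNA that binds SR proteins, stood at 1164 ± 122 CPM in TAC KO, against 2946 ± 247 in TAC WT and 3392 ± 215 in Sham WT (SD, n = 4), Kcnq1ot1 at log2 -1.17 and Neat1 at -0.57. Of 8 macrophage markers 5 rose, where 15.7% of all tested genes rose. The sum of these markers was 293 to 398 CPM in TAC KO, 202 to 297 in TAC WT and 213 to 265 in Sham WT. Of 8 fibroblast markers 3 rose, with sums of 1972 to 2366, 1647 to 2018 and 1538 to 1767 CPM in the same order. Smooth muscle and pericyte markers rose for 4 of 8 and fell for 1, with sums of 1013 to 1160, 1039 to 1399 and 1131 to 1270, and of 7 endothelial markers 2 fell, with sums of 1055 to 1187, 1213 to 1500 and 1185 to 1396. Of 8 cardiomyocyte markers 2 rose, with sums of 63868 to 68203, 63594 to 68215 and 70809 to 81112. None of the 2 T cell, 4 red cell, 1 adipocyte and 2 Schwann cell markers tested passed. With trends removed 5 macrophage, 2 fibroblast, 4 smooth muscle and pericyte and 1 cardiomyocyte markers rose, where 12.6% of all tested genes did. In that fit 3 endothelial markers fell, and no smooth muscle or pericyte marker did. No marker that was found was at 0 in all libraries, and the part of these differences in the falls of the 60 genes was not tested.

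Neighbouring genes of the set were set side by side, and differences between neighbours were not tested. Rbm6 and Rbm5 lie 2562 bases apart on chromosome 9 and stood at -0.48 and -0.27 in TAC KO against TAC WT, and Rbm12 and Rbm39 on chromosome 2 stood at -0.22 and -0.30. Rbm4 stood at -0.43 (95% interval -0.76 to -0.10). Rbm4b, 17227 bases away on chromosome 19, stood at -0.02 (interval -0.22 to 0.17, which overlaps that of Rbm4) and Rbm14 at -0.16. Hnrnpd and Hnrnpdl on chromosome 5 stood at -0.18 and -0.15, and only Rbm5, Rbm6 and Rbm39 of these passed. The near-identical neighbours Rbm12b2 and Rbm12b1 on chromosome 4 stood at -0.79 and -0.68. Rbm4 has a near-identical overlapping record (Gm21992, 394 counts against 734), so its level is uncertain. Rbm4b has such a record on the opposite strand (Gm37206, 902 counts against 3069). Hnrnpa3 has 22 near-identical copies elsewhere that together took 0.9765% as many counts as the gene, and the 2 copies of Hnrnpk took 4.783%. Exons of Hnrnph3, Hnrnpu, Hnrnpk, Hnrnpab, Srsf2, Rbm15b, Rbm18, Rbm48 and Rbm12b2 (Tmem67) overlap, among others, a gene on the opposite strand. Those of Hnrnpm, Rbm15b (Manf, 15930 counts against 7989) and Rbm26 (Gm17066, 1425 against 9669) overlap, among others, a gene on the same strand; whether the counting used strand is not given in the sources used here, and reads there cannot be told apart.

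Promoter letters were compared because many of these genes fell together. RefSeq windows of 200 bases before the start (GRCm38.p6) were matched for 44 of the 60 genes and for 9293 tested protein-coding genes, and 16 genes of the set had no entry used. Starts up to 500 bases from the annotated 5′ end were accepted. For 38 of the 44 genes the bases after the start matched an annotated transcript. The windows had a median GC content of 62% in the set and 61.5% in all, in contrast to the transcripts. Motifs were searched on both strands. The GC box (GGGCGG) was in 56.5% of 23 windows of genes that fell in TAC KO against TAC WT, 52.4% of the other 21 and 57.5% of all. The CCAAT box (CCAAT) was in 47.8%, 38.1% and 33%, the ETS site (CCGGAAG) in 8.7%, 23.8% and 13%, and the E-box (CACGTG) in 4.35%, 14.3% and 7.59%. A TATA box (TATAAA) was in 4.35%, 14.3% and 4.78%, the NRF1 site in 4.35%, 4.76% and 7.88%, and none of the set held YY1 (AAGATGGCG, 1% of all) or the CRE (TGACGTCA, 2.77% of all). Matches between motifs may overlap in a window, counts in the set are small, and a match is a description of letters. The windows of 1 lowered gene per family are shown. Each had its family's smallest p in TAC KO against TAC WT among genes whose matched window lay outside the gene. The Rbm24 window, not shown, held none of these motifs, and the bases after its start matched no annotated transcript of the gene. Those shown are Srsf1 at chr11:88047173-88047372 (+ strand), Hnrnpa3 at chr2:75659059-75659258 (+) and Rbm39 at chr2:156180239-156180438 (-), 5′ to 3′ with motif matches on either strand in capitals.
Srsf1: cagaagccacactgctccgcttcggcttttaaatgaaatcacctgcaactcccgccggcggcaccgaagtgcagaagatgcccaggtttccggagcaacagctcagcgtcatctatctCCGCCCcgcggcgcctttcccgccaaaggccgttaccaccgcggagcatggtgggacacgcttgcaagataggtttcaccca
Hnrnpa3: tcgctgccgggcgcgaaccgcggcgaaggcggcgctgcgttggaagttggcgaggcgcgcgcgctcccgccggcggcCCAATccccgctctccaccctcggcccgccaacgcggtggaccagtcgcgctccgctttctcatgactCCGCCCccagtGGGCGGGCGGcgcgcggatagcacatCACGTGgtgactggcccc
Rbm39: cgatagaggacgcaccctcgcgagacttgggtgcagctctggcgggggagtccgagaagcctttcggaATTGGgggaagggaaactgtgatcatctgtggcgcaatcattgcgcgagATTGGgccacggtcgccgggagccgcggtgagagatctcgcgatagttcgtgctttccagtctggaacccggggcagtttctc
The Srsf1 window holds 1 GC box, that of Hnrnpa3 a CCAAT box, 3 GC boxes and an E-box next to the start, and that of Rbm39 a pair of CCAAT boxes on the opposite strand.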

How the data were processed

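Polyadenylated RNA of mouse hearts was measured in 12 libraries, per the labels. The deposited values were raw whole-number counts per gene, 1 file per library. The submitters' processing notes name STAR, featureCounts 1.6.4, Trim Galore 0.5.0, DESeq2, FastQC 0.11.8, bcl2fastq, MultiQC 1.7, StringTie 1.3.5 and the build GRCm38; how they were set and which annotation was counted are not given in the sources used here. The kit was directional, per the labels' protocols. Gene names came from GENCODE for GRCm38, which named 54079 of 54146 records.

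The members and lists were chosen with earlier results of these data known. Genes were tested in R 4.3.3 with edgeR 4.0.16 (quasi-likelihood test, TMM scaling, filterByExpr, 1 fit of 12 libraries), where TMM factors were 0.9769 to 1.036 and the common biological coefficient of variation was 0.113. Replicates were numbered in accession order. GC and length trends were modelled per library by splines (5 degrees of freedom each) and entered as offsets. Near-identical copies were searched with minimap2 2.31-r1302. Scripts were tested on simulated data. Alternatives were RLE and upper-quartile scaling, DESeq2 1.42.0, limma voom 3.58.1 with quality weights, no low-count filter, 1 CPM in 4 libraries, trends removed, 1 surrogate variable (sva 3.50.0), only the compared groups, and each library left out. Values in all libraries are given for Rbm20, Rbm24 and Srsf1 and, per family, for up to 5 genes with the smallest p in TAC KO versus TAC WT and up to 3 in TAC WT versus Sham WT. From each list of other splicing or nuclear RNA genes up to 3 with the smallest p per comparison may be named. Counting limits cover counting error only, since reads are not independent molecules.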

Additional observations from a re-analysis of the deposited data

Results flagged for a closer look

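In 8 of the 180 gene and group combinations, 1 library stood apart from the other 3 of its group by a gap above Dixon's 95% critical value, and chance gives about 1 in 20. Among wild-type hearts after TAC, TAC WT 4 was high for Srsf5 at 192 CPM (others 174 to 176), Srsf2 at 150 (143 to 144) and Hnrnpab at 184 (161 to 164). Rbm28 stood at 56.1 CPM in TAC WT 3 (others 48.8 to 49.2), and Rbm34 at 3.88 in TAC WT 2 (4.85 to 5). In Sham WT, Hnrnph3 stood at 65 CPM in replicate 1 (others 60.9 to 61.1) and Rbm15 at 15.7 in replicate 4 (13.2 to 13.5). Rbm4 was the 1 such gene in the knockout, at 0.996 CPM in TAC KO 1 against 1.54 to 1.6 in the others.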

How the results depend on the processing

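Across the 21 other settings, the number of genes lower in TAC KO than in TAC WT was 26 to 29 under the settings that kept all libraries or the compared groups and 27 to 31 with each library left out. Against Sham WT it was 27 to 33 and 27 to 30. Calls that held under every setting numbered 3 of 5 in TAC WT versus Sham WT, 23 of 30 in TAC KO versus TAC WT and 24 of 32 in TAC KO versus Sham WT. Small counts moved by over 1.5 times, and the cause was not tested. In TAC WT versus Sham WT, genes higher numbered 1 with voom and with a surrogate variable, and 1 to 2 with a library left out; genes lower numbered 5 with voom and 7 with a surrogate variable, and 2 to 4 with a library left out. In TAC KO versus TAC WT, genes higher numbered 2 with upper-quartile scaling, voom and no low-count filter, and 0 to 2 with a library left out, being 0 without TAC KO 3. In TAC KO versus Sham WT, genes higher numbered 0 with a surrogate variable and 0 to 1 with a library left out. The sign turned with trends removed for Hnrnpr (0.05) and Hnrnpu (0.03) against TAC WT and for Hnrnpu (0.03) against Sham WT. Values near 0 also turned: Srsf1 in TAC WT versus Sham WT was 0.02 with voom and -0.09 to 0.00 with a library left out, and Rbm20 in TAC KO versus TAC WT was -0.01 with voom, -0.04 with a surrogate variable and -0.05 to 0.12 with a library left out. Of genes that did not pass, 13 of 55, 13 of 30 and 13 of 28 changed sign under some setting. No paired analysis was possible because the labels give no replicate numbers. Rbm8a2, with 98 counts in all, had the widest interval of the 60 genes.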

Other observations

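Genes with the same symbols on the X chromosome were measured too. Rbm3, a protein induced by cold, stood at 34.9 ± 4.54 CPM in TAC KO, against 26 ± 5.46 in TAC WT and 29.8 ± 2.79 in Sham WT (SD, n = 4), and rose in TAC KO against TAC WT (log2 0.43, SE 0.13, edgeR adjusted p = 0.02149). Rbm41 fell by 0.68 in that comparison (SE 0.11, adjusted p = 0.0005904), and Hnrnph2, a G-run binder like Hnrnph1, fell by 0.29 (adjusted p = 0.0104). Rbm10 did not pass, at -0.03 (adjusted p = 0.7434).

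Genes below the count minimum had few reads in all 12 libraries together, with 29 counts for Rbm44, 27 for Rbm46, 19 for Rbm11, 16 for Srsf12 and 13 for Rbm42.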
